A study of Mus musculus with 20 samples.

Results

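A set of 10 genes that encode receptors, adhesion and guidance proteins, a kinase scaffold, a protease and membrane proteins was followed over libraries of sorted mouse cDC1s. These type 1 conventional dendritic cells express the chemokine receptor XCR1 and present captured antigen to CD8 T cells. The 10 genes are the receptor genes Gfra2, Adrb1 and Erbb2, the receptor accessory gene Mrap, the adhesion and guidance genes Ptprm, Tenm4 and Sema6a, the scaffold gene Ksr2, the protease gene Mmp13 and Tmem229a. They were selected on their CPM in the EpoR+ and EpoR- libraries, out of 54532 genes, because each stood far higher in the EpoR+ libraries and was nearly absent from the EpoR- libraries. The difference between these fractions therefore chose the genes, and it is given below as a description with no test. Each gene was matched by its Ensembl identifier in all 3 tables of the study.

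RNA sequencing covered 20 libraries in 8 groups. In EpoR-tdTomato mice, whose reporter marks cells that carry the erythropoietin receptor, XCR1+CD8a+ cDC1s were sorted on day 15 of TLI/ATS (irradiation of the lymphoid organs combined with anti-thymocyte serum), a conditioning regimen used to induce transplant tolerance. They are EpoR+ or EpoR- by the labels (n = 2 each), and both fractions share the treatment and the reporter. In wild-type C57BL/6 mice, XCR1+CD8a+ cDC1s came from mice on day 15 of TLI/ATS and from untreated mice (n = 2 each). In Epor-Xcr1-Cre cKO mice, Cre under Xcr1 control deletes Epor in XCR1+ cells, and Eporflox/flox mice were the controls. From these genotypes came migratory cDC1s of the peripheral lymph node and CCR7+XCR1+SIRPa- cDC1s of the spleen (n = 3 in each of the 4 groups), with no TLI/ATS given in the labels. The labels do not say whether libraries of a group came from separate mice, so a p-value may measure only technical spread. Values are given as CPM, read counts scaled to the total of the library.

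Much of what is known of these genes comes from the nervous system. Teneurins, semaphorins and receptor tyrosine phosphatases of the R2B type are cell-surface proteins that guide axons or join cells, GDNF family receptors bind neurotrophic factors, and β1-adrenoceptors respond to noradrenaline from sympathetic nerves. Most also act outside neurons: ErbB2 is a co-receptor of epithelial growth factor receptors, MMP13 cleaves fibrillar collagen and MRAP brings the ACTH receptor to the surface of adrenal cells. A gene of this kind in a sorted immune cell can belong to that cell or to RNA of another cell in the sort.

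The libraries held 37.3 and 37.9 M counts (EpoR+; M is counts times 1e-06), 40.1 and 33.7 M (EpoR-), 77.6 and 67.3 M (TLI/ATS), 46.2 and 40.6 M (untreated) and 26.6 to 49.7 M (lymph node and spleen). Epor itself, the gene the reporter stands for, had 14.1 and 17.3 CPM in EpoR+ against 0.0997 and 0.327 CPM in EpoR- libraries, and 236 and 127 counts after TLI/ATS against 0 and 0 in untreated libraries. Among 13 cDC1 markers, 11 were lower and 0 were higher in EpoR+ libraries, with sums of 8779 to 10119 CPM in EpoR+ against 17512 to 19175 CPM in EpoR- libraries. All 22 macrophage markers were higher, with sums of 29139 to 29652 CPM in EpoR+ against 510 to 511 CPM in EpoR- libraries. Sirpa, a gene of macrophages and of other dendritic cells, stood at 1850 and 1747 CPM in EpoR+ against 33.1 and 24.6 CPM in EpoR- libraries, and Xcr1 at 495 and 412 CPM against 1139 and 1057 CPM. All 12 erythroid markers were higher too, with sums of 2057 to 2432 CPM in EpoR+ against 230 to 331 CPM in EpoR- libraries. The list for cDC2s and monocyte-derived cells had 5 of 9 genes higher and 1 lower (1904 to 1979 CPM in EpoR+ against 120 to 166 CPM in EpoR- libraries). Of 10 T cell markers 5 were tested and 2 were higher (63.6 to 64.4 CPM against 9.05 to 12.9 CPM). Pancreas markers summed to 196 and 166 CPM in EpoR+ against 2844 and 198 CPM in EpoR- libraries. Markers of neutrophils, basophils and mast cells summed to 232 and 268 CPM against 904 and 302 CPM. In these 2 lists 0 genes were called, and EpoR- replicate 1 had the highest sum. Of 12 stroma and endothelium markers 10 were tested, 1 was higher and 0 were lower. Their sums were 296 to 321 CPM in EpoR+ against 144 to 186 CPM in EpoR- libraries. B and plasma cell markers had 1 of 10 higher and 1 lower (5969 and 2842 CPM against 4129 and 2260 CPM). The EpoR+ libraries thus hold marker transcripts of cDC1s, macrophages and other cell types together, although the label names cDC1s alone. Whether the sorted cDC1s express these markers themselves or other cells in the sort do was not tested. The part of any of these cell types in the values of the 10 genes was not tested either.

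The word neuronal was checked against 17 neuron markers. They summed to 19.4 to 21.1 CPM in EpoR+ against 8.79 to 11.2 CPM in EpoR- libraries. Among the 17, Dbh, Gap43, Nefl, Nefm, Snap25 and Th had 0 counts in both EpoR+ libraries. Of the 5 markers tested, 1 was higher, with a median log2 fold change of -0.13 against 0.02 over all genes. The 10 markers of Schwann cells and glia summed to 124 to 137 CPM in EpoR+ against 191 to 207 CPM in EpoR- libraries, with Cdh19 at 0 in both fractions. Of 6 tested 2 were higher and 1 was lower, where 11.9% and 4.75% of all genes were called higher and lower. Their median log2 fold change was 2.14, so the sum and the median point opposite ways. On the values of the neuron list, the 10 genes are called here by their molecular roles and not as a neuronal program.

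**Figure D1:**
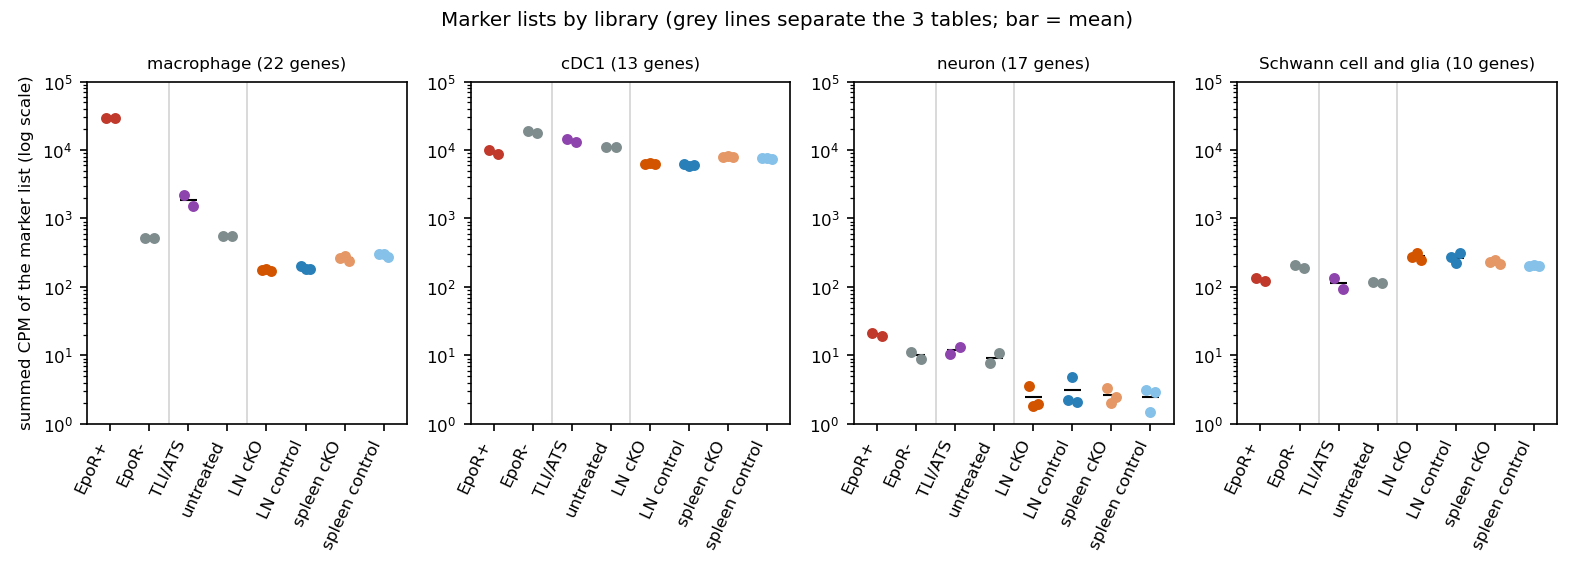
Summed level in CPM (log axis) of marker lists in each library, by group, with a point per library, a bar at the mean and grey lines between the separately counted tables. Macrophage markers stand at 29139 to 29652 CPM in EpoR+ libraries and at 510 to 511 CPM in EpoR- libraries, while the neuron list stays under 22 CPM in every library.

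The receptors and their accessory protein are given first. Gfra2 (ENSMUSG00000022103; GRCm38 chr14:70890120-70979838, plus strand) encodes GFRα2, the GPI-anchored receptor for neurturin that signals through RET. It had 413 and 428 CPM in EpoR+ against 4.26 and 3.77 CPM in EpoR- libraries, a count ratio of 104 with a 95% counting interval from 92.9 to 117. Both EpoR+ values lie far above both EpoR- values, and the gene was not absent from EpoR- cells, where it had 171 and 127 counts. Adrb1 (ENSMUSG00000035283; chr19:56722199-56733113, plus strand) encodes the β1-adrenoceptor, which raises cAMP through the stimulatory G protein. It had 41.0 and 76.5 CPM in EpoR+ libraries, against 5 and 10 counts in EpoR- libraries (ratio 289, interval 175 to 518). The EpoR+ libraries differed from each other more in Adrb1 than in any other of the 10 genes. Erbb2 (ENSMUSG00000062312; chr11:98412470-98437716, plus strand) encodes the receptor tyrosine kinase that has no ligand of its own and pairs with other ErbB receptors. It had 28.4 and 25.9 CPM in EpoR+ against 0.299 and 0 CPM in EpoR- libraries (ratio 167, interval 95.3 to 323). Mrap (ENSMUSG00000039956; chr16:90738207-90749785, plus strand) encodes the melanocortin-2 receptor accessory protein. It had 17.5 and 17.7 CPM in EpoR+ against 0.0498 and 0.178 CPM in EpoR- libraries (ratio 163, interval 82.2 to 377). In the EpoR- libraries Erbb2 and Mrap each rested on 12 counts or fewer.

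Among the adhesion and guidance genes, Ptprm (ENSMUSG00000033278; chr17:66666947-67354457, minus strand), the receptor tyrosine phosphatase μ that binds itself across cell contacts, had 158 and 153 CPM in EpoR+ against 1.30 and 1.19 CPM in EpoR- libraries. The ratio was 125 (interval 102 to 155). Tenm4 (ENSMUSG00000048078; chr7:96171246-96911093, plus strand), a teneurin that binds latrophilins, had 34.8 and 27.6 CPM in EpoR+ against 0.0498 and 0.149 CPM in EpoR- libraries. Its ratio of 329 (interval 159 to 819) was the largest of the 10. Sema6a (ENSMUSG00000019647; chr18:47235598-47368870, minus strand), a transmembrane semaphorin that binds plexin A2 and plexin A4, had 35.3 and 36.0 CPM in EpoR+ against 0.150 and 0.119 CPM in EpoR- libraries (ratio 263, interval 143 to 549). For all 3 genes the fractions were far apart, and Tenm4 and Sema6a had 7 and 10 counts in all over the EpoR- libraries.

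Ksr2 (ENSMUSG00000061578; chr5:117414000-117775003, plus strand) encodes a scaffold that holds RAF, MEK and ERK together. It had 16.9 and 17.9 CPM in EpoR+ against 0.0249 and 0.119 CPM in EpoR- libraries (ratio 256, interval 110 to 791). Mmp13 (ENSMUSG00000050578; chr9:7272514-7283331, plus strand), the collagenase, had 19.7 and 17.4 CPM in EpoR+ against 0.199 and 0 CPM in EpoR- libraries (ratio 171, interval 86.6 to 397). Tmem229a (ENSMUSG00000048022; chr6:24951141-24956297, minus strand), a membrane protein of unknown role whose gene has 1 exon, had 14.2 and 18.9 CPM in EpoR+ against 0 and 0.119 CPM in EpoR- libraries (ratio 305, interval 119 to 1123). These 3 genes also had no EpoR- library near an EpoR+ one. A read pair could add 2 counts here, so these intervals are narrower than counting error warrants.

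**Figure D2:**
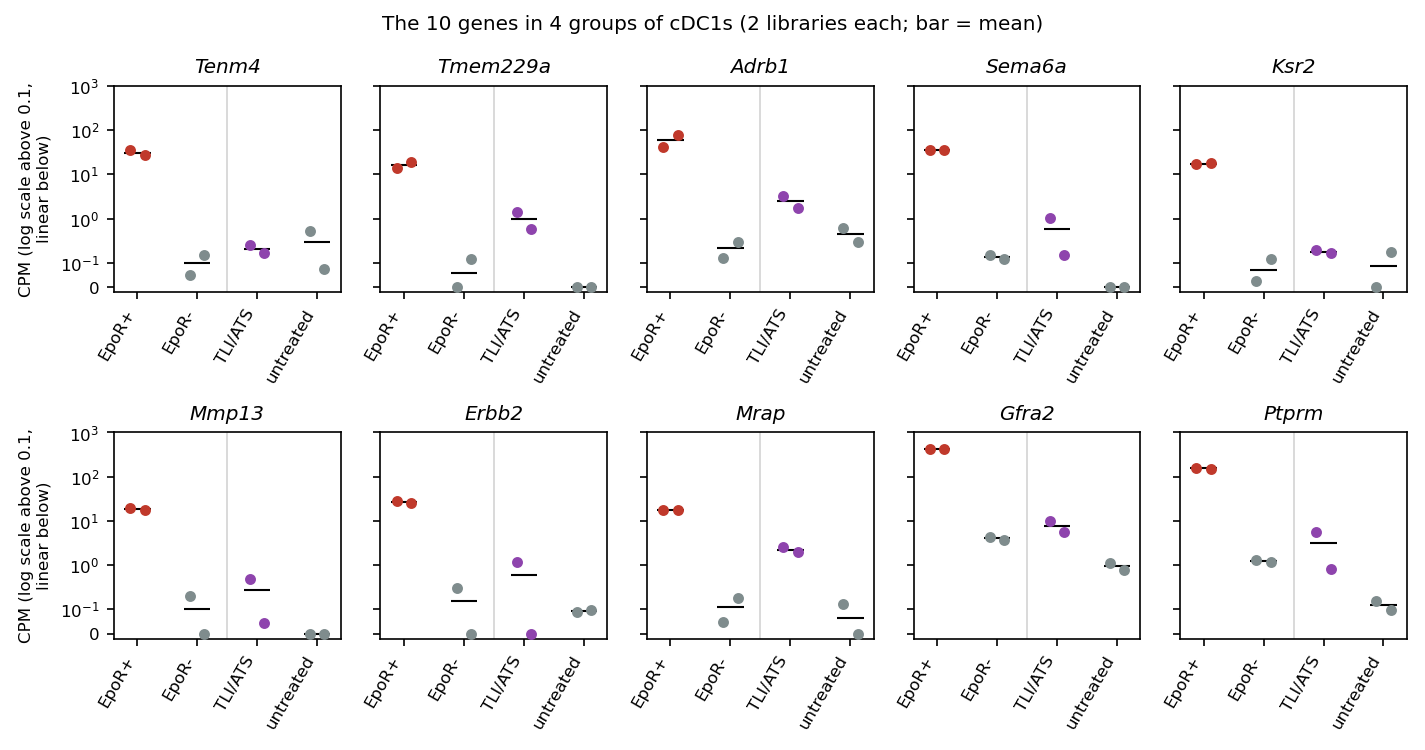
CPM of each of the 10 genes (vertical axis, logarithmic above 0.1 CPM and linear below) in the EpoR+, EpoR-, TLI/ATS and untreated libraries, with a point per library, a bar at the mean of 2 and a grey line between the separately counted tables. The EpoR+ points lie between 14.2 CPM (Tmem229a) and 428 CPM (Gfra2) and the EpoR- points at or below 4.26 CPM.

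All 10 genes stood higher in both EpoR+ libraries than in either EpoR- library. Over all 15627 genes tested, 11.9% were called higher, 4.75% were called lower and 33.0% were higher without overlap, and since the same contrast chose the genes nothing is read from their count. A ranking by fitted fold change took in 1260 genes past the threshold, higher without overlap and at a mean of at least 3 log2 CPM. Predicted models, pseudogenes and immunoglobulin or T cell receptor genes were left out. In it the 10 genes held ranks 1 to 8, 15 (Ptprm) and 26 (Gfra2). Tenm4 came first, then Tmem229a, Adrb1 and Sema6a, then Ksr2, then Mmp13, Erbb2 and Mrap. Genes outside the ranking could have fold changes as large, such as Chp2 with 11.11 and Ppm1n with 7.92 on the log2 scale. Adamdec1 at rank 25 had a log2 fold change of 6.69 and Hcar2 at rank 27 one of 6.68, and neither was picked. Thus 16 of the first 26 ranks belong to other genes.

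Per kilobase of exon the order of the levels in EpoR+ cells changed. Gfra2 led with 119 ± 3.03 CPM per kb (SD, n = 2, as for each of these levels). Adrb1 followed with 23.6 ± 10.1 CPM per kb, a spread that takes in Ptprm at 17.6 ± 0.392 and reaches near Mrap at 11.1 ± 0.0674 CPM per kb. The exon length that came with the EpoR counts of Adrb1 is shorter than the 3.38 kb annotated at the coordinates above. Its place above Ptprm rests on that shorter length. Mmp13 had 6.94 ± 0.611, Erbb2 5.21 ± 0.339, Sema6a 4.06 ± 0.0516 and Tmem229a 3.21 ± 0.642 CPM per kb. Tenm4 at 1.49 ± 0.243 and Ksr2 at 1.28 ± 0.0495 CPM per kb came last and differed by less than the SD of Tenm4. In CPM summed over the 10 genes, the EpoR+ libraries had 779 and 819 against 6.45 and 5.94 in EpoR- libraries, and Gfra2 alone made up 53.0% and 52.3% of the EpoR+ sums.

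The 10 genes lie on 10 different chromosomes. Of their 20 nearest protein-coding neighbours, 14 were tested between the fractions, 4 were higher and 1 was lower in EpoR+, where 11.9% and 4.75% of all genes were called higher and lower, with a median log2 fold change of 0.11 against 0.02 over all genes. Nos1, the neuronal nitric oxide synthase, which begins 6.03 kb beyond Ksr2, stood out with 8.64 ± 0.901 CPM in EpoR+ against 0.0795 ± 0.0285 CPM in EpoR- libraries (log2 fold change 6.67 ± 0.45 SE, n = 2 per fraction; adjusted p = 0.000599 by the quasi-likelihood test of edgeR, with the Benjamini-Hochberg method over all genes, as for every adjusted p here). Dok2, an adaptor that restrains kinase signalling and lies next to Gfra2, rose by 3.31 ± 0.22 on the log2 scale. Mmp12, the macrophage elastase gene beside Mmp13, rose by 2.62 ± 0.43, a call lost when 1 library is left out. Pgap3, which remodels GPI anchors and neighbours Erbb2, rose by 1.16 ± 0.25 (edgeR adjusted p = 0.0314), while Nhlrc2 beside Adrb1 fell by 0.59 (edgeR adjusted p = 0.0371). Exon sharing touched Tenm4 over 4.70% of its exon bases, Ptprm over 5.18% and Erbb2 over 0.173%. How many reads fell on the shared bases was not tested.

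Sequences 5′ of the gene start were read from RefSeq on GRCm38.p6. Entries were matched for 7 of the 10 genes, and Mrap, Gfra2 and Sema6a are named only. The rise between the fractions is shared because it chose the genes, and shared control was not tested. Stretches of 3 genes are shown to contrast their make-up. They are the Mmp13 stretch (chr9:7272264-7272513, plus strand), the Erbb2 stretch (chr11:98412234-98412469, plus strand) and the Ptprm stretch (chr17:67354460-67354709, minus strand). Each reads 5′ to 3′ and ends within 3 bases of the gene's start, with motif matches in capitals.
Mmp13: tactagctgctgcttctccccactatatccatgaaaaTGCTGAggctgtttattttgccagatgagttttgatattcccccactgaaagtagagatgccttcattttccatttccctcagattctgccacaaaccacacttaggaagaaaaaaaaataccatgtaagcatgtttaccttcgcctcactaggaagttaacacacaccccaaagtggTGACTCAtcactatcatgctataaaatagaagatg
Erbb2: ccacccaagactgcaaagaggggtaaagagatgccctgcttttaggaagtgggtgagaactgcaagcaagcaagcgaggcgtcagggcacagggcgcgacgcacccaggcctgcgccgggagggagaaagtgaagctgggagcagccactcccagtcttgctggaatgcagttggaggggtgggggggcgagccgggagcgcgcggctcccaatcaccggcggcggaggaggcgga
Ptprm: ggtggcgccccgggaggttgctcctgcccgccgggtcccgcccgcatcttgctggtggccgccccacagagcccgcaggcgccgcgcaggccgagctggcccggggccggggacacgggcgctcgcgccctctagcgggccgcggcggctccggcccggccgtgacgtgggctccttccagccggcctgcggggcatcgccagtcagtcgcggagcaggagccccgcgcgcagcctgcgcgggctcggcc
Both strands were searched for TGANTCA (the AP-1 site), TGCTGA (the core of the MAF site), TTCNNNGAA (the STAT site), GAGGAAG (the ETS site read by PU.1) and TGACGTCA (the cAMP response element). The Mmp13 stretch held TGACTCA, starting at position 216 of its 250 bases, and TGCTGA, starting at position 38. The full 250 bases before the RefSeq start were searched in all 7 matched genes, including the bases not printed for Erbb2, and the other 6 held none of the 5 motifs. For Tmem229a most of these bases lie past the annotated gene start, so its base composition is not given. Over 27025 mouse promoters of the same length, 6.87% held TGANTCA, 15.8% TGCTGA, 7.18% TTCNNNGAA, 10.4% GAGGAAG and 1.62% TGACGTCA. The matches describe letters and show no binding. Base composition set the stretches apart: G and C made up 40.4% of the Mmp13 stretch, 65.7% of that of Erbb2 and 81.2% of that of Ptprm, with 50.8% for Tenm4, 74.0% for Adrb1, 78.2% for Ksr2 and a median of 52.0% over all promoters.

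Relatives and partners of the 10 genes were then compared between the fractions, where they had no part in choosing the 10. Their counts of calls are set beside the 11.9% of all genes called higher and 4.75% called lower, from which a list with 1 higher gene among 11 to 13 does not stand apart. The lists were drawn up with earlier results of these data known, so the counts are a description. Ret, the kinase through which GFRα2 signals, stood at 0.0532 CPM in EpoR+ and 0.0795 CPM in EpoR- libraries and was too low to test. The relatives Gfra1, at 0.134 CPM in EpoR+ and 0.142 CPM in EpoR- libraries, and Gfra3, at 0, were also near absence. Gfra4, the receptor for persephin, had 186 counts in EpoR+ against 4 in EpoR- libraries (log2 fold change 5.44 ± 1.10 SE, n = 2 each, edgeR adjusted p = 0.0273), a call that is lost when 1 library is left out. Of 9 genes in this list 3 were tested and 1 was higher. Mc2r, the ACTH receptor that MRAP serves, stood at 0.0264 CPM in EpoR+ and 0 CPM in EpoR- libraries, and 0 of the 6 melanocortin genes could be tested. In the adrenergic list 13 of 20 genes were tested, 1 was higher and 1 was lower. Adcy3, an adenylyl cyclase that makes cAMP, had 60.6 ± 7.17 CPM in EpoR+ against 1.52 ± 0.386 CPM in EpoR- libraries (5.29 ± 0.25, edgeR adjusted p = 0.00019). Prkar2b, a regulatory subunit of protein kinase A, fell by 0.74 (edgeR adjusted p = 0.0166), a call lost when 1 library is left out.

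In the ErbB list 7 of 14 genes were tested, 1 was higher and 1 was lower. Hbegf, a ligand of the EGF receptor and ErbB4, had 10.7 ± 5.07 CPM in EpoR+ against 0.317 ± 0.308 CPM in EpoR- libraries (5.09 ± 0.82, edgeR adjusted p = 0.0163). Erbb3, a partner of ErbB2 that binds neuregulins, had 9.57 ± 1.38 CPM in EpoR+ and 3.76 ± 1.79 CPM in EpoR- libraries and missed the threshold (adjusted p = 0.0847 by edgeR and 0.0282 by DESeq2), Egfr had 1.09 and 1.62 CPM, and Erbb4 had 0 counts. Nrg2, a neuregulin, fell by 1.01 (edgeR adjusted p = 0.0212), a call lost when 1 library is left out.

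In the semaphorin 6 and plexin A list 6 of 7 genes were tested and 2 were higher. Sema6d, a close relative of Sema6a, had 286 ± 33.4 CPM in EpoR+ against 3.78 ± 0.162 CPM in EpoR- libraries (6.22 ± 0.16, edgeR adjusted p = 3.03e-05). Plxna1, a plexin that receives Sema6d, had 219 ± 8.03 CPM in EpoR+ against 21.2 ± 1.93 CPM in EpoR- libraries (3.35 ± 0.13, edgeR adjusted p = 0.0001). Plxna4 had a log2 fold change of 2.81 that missed the threshold (adjusted p = 0.0653 by edgeR and 0.0124 by DESeq2). The other teneurins were near 0, with Tenm2 at 0 counts and Tenm3 at 0.0268 CPM in EpoR+ and 0.0249 CPM in EpoR- libraries. Of the latrophilins that bind teneurins, Adgrl2 had 16.8 ± 3.87 CPM in EpoR+ against 2.1 ± 0.261 CPM in EpoR- libraries (2.98 ± 0.28, edgeR adjusted p = 0.00202), and Adgrl3 42.6 ± 2.46 CPM against 12.6 ± 3.63 CPM (1.74 ± 0.24, edgeR adjusted p = 0.00737). They were the 2 called among 5 tested of 9 genes in the teneurin list. Among relatives and partners of Ptprm 7 of 9 genes were tested and 2 were higher. Ptprk, a phosphatase of the same R2B type, had 4.19 CPM in EpoR+ against 0.385 CPM in EpoR- libraries (3.40 ± 0.47, edgeR adjusted p = 0.00773). Ctnnd1, the cadherin-bound p120 catenin, rose by 1.58 ± 0.22 (edgeR adjusted p = 0.00755), a call lost when 1 library is left out.

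Of the matrix metalloproteinases and their inhibitors 16 of 23 genes were tested, 6 were higher and 1 was lower. Timp2, an inhibitor that also helps activate MMP2, had 397 ± 2.42 CPM in EpoR+ against 7.43 ± 1.44 CPM in EpoR- libraries (5.72 ± 0.19, edgeR adjusted p = 5.78e-05). Mmp14, a membrane-bound protease that can activate pro-MMP13, had 12.3 ± 0.447 CPM in EpoR+ against 1.02 ± 0.314 CPM in EpoR- libraries (3.56 ± 0.33, edgeR adjusted p = 0.00186). Mmp27 had 7.12 ± 2.27 CPM in EpoR+ libraries and 2 counts in all over the EpoR- libraries, and Mmp2, the gelatinase, and Mmp25 rose by 2.45 and 1.28 on the log2 scale. Mmp28, or epilysin, fell by 1.40 (edgeR adjusted p = 0.00919). Tmem229b, the relative of Tmem229a, had 127 ± 20.8 CPM in EpoR+ and 184 ± 7.03 CPM in EpoR- libraries and missed the threshold (adjusted p = 0.0589 by edgeR and 0.0139 by DESeq2).

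All 11 genes of the list, from the KSR relative Ksr1 through the RAF, MEK and ERK kinases, were tested and 1 was higher, Braf by 0.67 ± 0.14 (edgeR adjusted p = 0.0269, lost when 1 library is left out). Ksr1 had 12.1 ± 0.547 CPM in EpoR+ and 8.38 ± 0.552 CPM in EpoR- libraries without passing (adjusted p = 0.156 by edgeR and 0.21 by DESeq2). Of the feedback and target genes of ERK signalling 15 of 16 were tested, 5 were higher and 0 were lower, with a median log2 fold change of 0.66 against 0.02 over all genes. Etv1, an ETS factor, had 15.8 ± 2.67 CPM in EpoR+ against 0.438 ± 0.367 CPM in EpoR- libraries (5.11 ± 0.61, edgeR adjusted p = 0.00575), and its relative Etv5 had 70.8 CPM against 13.2 CPM (2.40 ± 0.32, edgeR adjusted p = 0.00838). Dusp6, the phosphatase that switches ERK off, had 177 ± 17.8 CPM in EpoR+ against 84.1 ± 7.61 CPM in EpoR- libraries (1.06 ± 0.13, edgeR adjusted p = 0.00534), and Spred1 and Spry4, inhibitors of the same pathway, rose by 1.26 and 1.49, of which Spry4 is lost when 1 library is left out. Of 12 targets of cAMP and CREB all were tested and 1 was higher, the phosphodiesterase gene Pde4d by 2.56 ± 0.49 (edgeR adjusted p = 0.0218, lost when 1 library is left out), with a median of -0.16. Macrophage and erythroid markers differ between the same libraries, and their part in these differences was not tested.

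**Figure D3:**
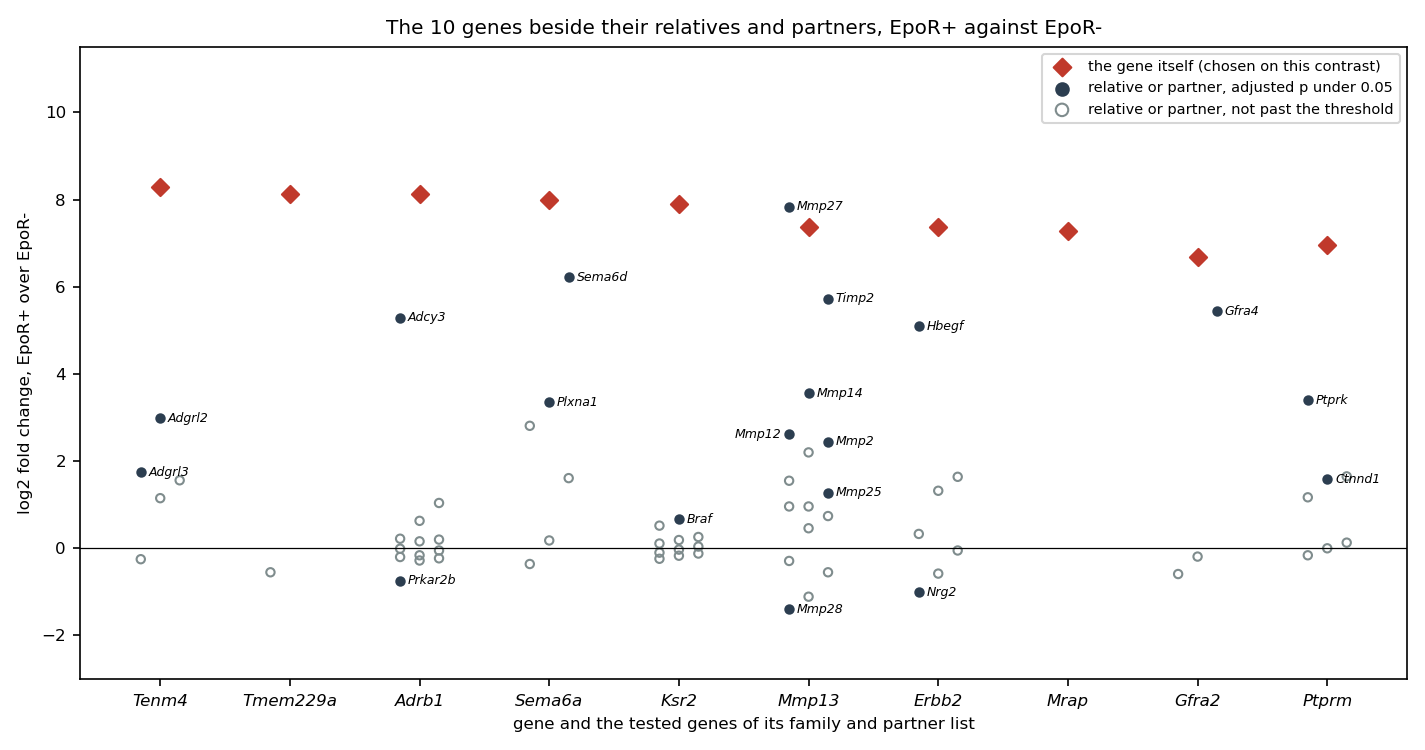
Log2 fold change, EpoR+ over EpoR- (vertical axis), of each of the 10 genes (diamonds) and of the tested relatives and partners in its list (circles, filled where past the threshold). The diamonds were chosen on this contrast, and among the circles Sema6d (6.22), Timp2 (5.72), Adcy3 (5.29) and Hbegf (5.09) lie high while most open circles lie near 0.

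The same 10 genes were followed in cDC1s sorted without regard to the reporter, on day 15 of TLI/ATS and untreated. No library of this table took part in choosing the genes, but the TLI/ATS treatment is shared with both EpoR fractions. The sum over the 10 genes was 25.7 and 11.2 CPM after TLI/ATS against 2.62 and 1.53 CPM untreated. Here 7 of the 10 genes were higher in both TLI/ATS libraries than in either untreated one, against 14.6% of all 17236 genes tested. The 7 include Sema6a and Mmp13, which the low-count filter removed, while the share covers only genes that passed it. Of the 10 genes 6 were tested, and the test passed 1 of them, Gfra2, against 0.499% of all genes called higher. In these bulk libraries, fewer cells that express a gene and less of its RNA per cell cannot be told apart.

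Gfra2 had 9.89 and 5.60 CPM after TLI/ATS against 1.13 and 0.788 CPM untreated, with no overlap (log2 fold change 3.12 ± 0.39 SE, n = 2 each, edgeR adjusted p = 0.0291). Mrap had 2.51 and 1.92 CPM after TLI/ATS against 0.130 and 0 CPM untreated (5.10 ± 0.99, edgeR adjusted p = 0.0814). Adrb1 had 3.22 and 1.71 CPM after TLI/ATS against 0.606 and 0.296 CPM untreated (2.54 ± 0.53, edgeR adjusted p = 0.0957). Neither Mrap nor Adrb1 overlapped between the groups, and neither passed. Tmem229a had 108 and 40 counts after TLI/ATS against 0 and 0 untreated, at least 29.5-fold higher against a floor of 3 counts over the untreated group (edgeR adjusted p = 0.0605). Ptprm had 5.49 and 0.817 CPM after TLI/ATS against 0.151 and 0.0986 CPM untreated (4.70 ± 1.06, edgeR adjusted p = 0.114). Sema6a had 80 and 10 counts and Mmp13 38 and 3 counts after TLI/ATS, against 0 in both untreated libraries, at least 18-fold and at least 8.19-fold higher, and both were too low to test.

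The remaining 3 genes overlapped. Tenm4 had 0.245 and 0.163 CPM after TLI/ATS and 0.519 and 0.0739 CPM untreated (-0.43 ± 1.00, edgeR adjusted p = 0.906). Ksr2 had 15 and 11 counts after TLI/ATS and 0 and 7 counts untreated. Erbb2 had 93 and 0 counts after TLI/ATS and 4 and 4 counts untreated. The TLI/ATS libraries did not agree closely with each other: in all 10 genes replicate 1 stood above replicate 2, by 93 counts against 0 for Erbb2 and 426 against 55 for Ptprm. The macrophage markers, of which 12 of 21 tested were higher, also summed higher in replicate 1, at 2214 CPM, than in replicate 2, at 1523 CPM, against 545 to 547 CPM in untreated libraries. Of the erythroid markers 7 of 11 tested were higher, with sums of 1312 to 1503 CPM after TLI/ATS against 243 to 250 CPM untreated. All 10 T cell markers were lower, with sums of 18.1 to 28 CPM after TLI/ATS against 766 to 769 CPM untreated. Of 10 B and plasma cell markers 5 were lower, and of 6 tested markers of neutrophils, basophils and mast cells 4 were higher (29.3 to 58 CPM after TLI/ATS against 4.44 to 4.95 CPM untreated). The part of any of these in the members' values was not tested. The call counts moved with the fit: 5 of the 10 genes (Adrb1, Gfra2, Mrap, Ptprm and Tmem229a) passed with DESeq2, and 3 to 8 passed when 1 library was left out, 5 without TLI/ATS replicate 1, 8 without TLI/ATS replicate 2, 4 without untreated replicate 1 and 3 without untreated replicate 2. Tenm4 turned to a log2 fold change of 1.55, still not passing, without untreated replicate 1.

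Among the relatives after TLI/ATS, 0 genes passed by edgeR in the teneurin, Tmem229, adrenergic, semaphorin, KSR, ErbB, GDNF and R2B lists and among ERK targets. At an unadjusted p under 0.05 there were 0 genes in the Tmem229, KSR, ErbB and GDNF lists, 1 teneurin partner, 2 genes each in the adrenergic, semaphorin and R2B lists and 4 ERK targets, and DESeq2 called 2 adrenergic genes, 1 R2B gene and 1 ERK target and none in the other lists. Mmp7, the protease matrilysin, had 0 counts after TLI/ATS against 92 untreated, at least 51.2-fold lower (edgeR adjusted p = 0.0346), and Gem, a small GTPase on the list of cAMP targets, fell by 2.19 (edgeR adjusted p = 0.036), where 2.20% of all genes were called lower.

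In cDC1s of the lymph node and spleen, where no TLI/ATS was given in the labels, 7 of the 10 genes stood at or near 0. Mmp13 had 0 counts in all 12 libraries. Tenm4, Tmem229a, Adrb1, Mrap and Ptprm had at most 16 counts in any library, and Ksr2 had 8, 0 and 24 counts in lymph node controls and at most 5 elsewhere. Macrophage markers were low in these libraries too, at 173 to 205 CPM in lymph node and 239 to 305 CPM in spleen. Erbb2, Gfra2 and Sema6a passed the filter on low counts, and the sum over the 10 genes was 9.48, 21.3 and 11.3 CPM in lymph node cKO, 17.2, 9.33 and 14.9 CPM in lymph node control, 2.98, 2.76 and 3.78 CPM in spleen cKO and 2.52, 2.18 and 3.67 CPM in spleen control libraries. Erbb2 made up the largest share in lymph node and Sema6a in spleen.

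Erbb2 was higher in lymph node than in spleen cDC1s in both genotypes. It had 7.51, 18.2 and 9.88 CPM in lymph node cKO against 0.561, 0.745 and 0.466 CPM in spleen cKO libraries. In controls it had 13.5, 6.90 and 9.95 CPM in lymph node against 0.280, 0.0751 and 0.705 CPM in spleen libraries. Every lymph node library stood above every spleen library. The log2 fold change, lymph node against spleen, was 4.07 ± 0.56 SE in cKO (n = 3 each, edgeR adjusted p = 4.91e-05) and 4.46 ± 0.58 in control (edgeR adjusted p = 1.97e-05), with count ratios of 19.8 (15.4 to 25.7) and 26.7 (19.3 to 38.1). Over all 17362 genes tested 14.1% were called higher in lymph node in cKO and 21.0% in control, and 35.2% and 34.7% were higher without overlap. The sample labels give CCR7+ for both organs and the study's design text for the spleen alone, so the gates may differ, and organ and gate then cannot be told apart. The 8 markers of epithelium, keratinocytes and Langerhans cells were listed after values had been seen. They summed to 16 to 23.6 CPM in lymph node cKO against 11.9 to 16 CPM in spleen cKO libraries. In controls they summed to 17.8 to 24.8 CPM in lymph node against 8.69 to 10.4 CPM in spleen libraries. Of 6 tested, 1 was higher in lymph node in cKO and 3 in control, and 0 were lower, with median log2 fold changes of 1.27 and 2.14. Of 10 T cell markers 8 were higher in lymph node in cKO (238 to 262 CPM in lymph node against 86.1 to 96.6 CPM in spleen) and 9 in control (321 to 326 CPM against 72.1 to 90.3 CPM). Of 7 stroma and endothelium markers tested 2 were higher in each genotype, and 1 was lower in control. Markers of B and plasma cells were mostly lower in lymph node, 7 of 10 in cKO (243 to 289 CPM in lymph node against 2602 to 2928 CPM in spleen) and 6 of 10 in control, where 1 was higher (262 to 295 CPM against 1212 to 1465 CPM). Likewise lower were 4 of 7 tested erythroid markers in cKO and 5 of 7 in control, 6 of 7 tested markers of neutrophils, basophils and mast cells in each genotype and all 10 tested pancreas markers in each genotype. The cDC1 markers themselves also differed between the organs. In cKO 10 of 13 were lower and 1 was higher in lymph node (median log2 fold change -1.48). In control 9 of 13 were lower and 1 was higher (median -1.29). Mean Xcr1 was 24.9 CPM in lymph node against 72.5 CPM in spleen in cKO. In control it was 30.8 CPM against 85.5 CPM. Of 18 macrophage markers tested, 1 was higher and 5 were lower in cKO, and 4 were higher and 5 lower in control. The part of any of these differences in the Erbb2 values was not tested.

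Gfra2 followed in controls. It had 2.60, 0.902 and 3.27 CPM in lymph node control against 0, 0 and 0.0846 CPM in spleen control libraries (5.77 ± 1.56, edgeR adjusted p = 0.00777). Spleen control held 3 counts in all, for a count ratio of 72.4 (24.5 to 353). In cKO it had 0.563, 1.61 and 0.322 CPM in lymph node and 0, 0.807 and 0.0582 CPM in spleen libraries, which overlapped, and it did not pass (1.28 ± 1.22, edgeR adjusted p = 0.473). That value rests on spleen cKO replicate 2, without which it was 4.56 (edgeR adjusted p = 0.0416). All 3 counts of the spleen control came from replicate 3. Sema6a went the other way, with 0.711, 1.02 and 0.946 CPM in lymph node control against 1.65, 2.1 and 2.23 CPM in spleen control libraries and no overlap (-1.46 ± 0.54, edgeR adjusted p = 0.0429). The call was narrow: over all genes 20.3% were called lower in lymph node and 16.4% were lower without overlap, and 5 of 6 fits that left out 1 of these libraries lost it. In cKO Sema6a had 1.08, 1.32 and 0.966 CPM in lymph node and 1.30, 0.962 and 3.26 CPM in spleen libraries, which overlapped (-0.97 ± 0.54, edgeR adjusted p = 0.199). In controls, then, 2 of the 3 genes tested were higher and 1 was lower, and in cKO 1 was higher.

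**Figure D4:**
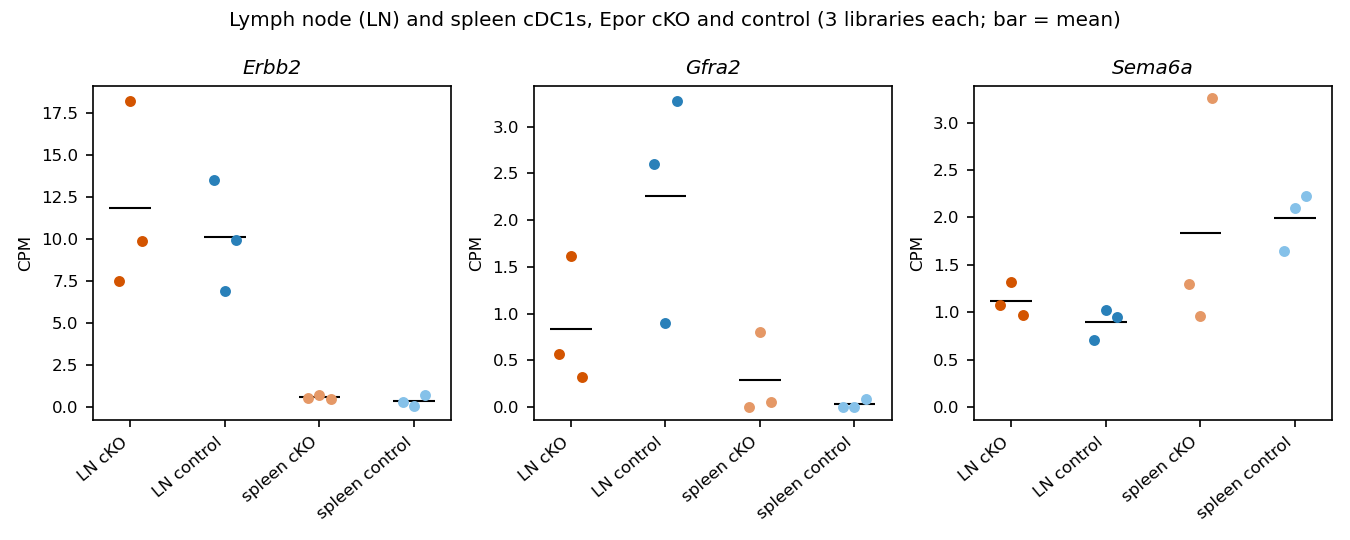
CPM of Erbb2, Gfra2 and Sema6a in lymph node and spleen cDC1 libraries, cKO and control, with a point per library and a bar at the mean of 3. Erbb2 is at 6.90 to 18.2 CPM in all 6 lymph node libraries and at or below 0.745 CPM in all 6 spleen libraries, while cKO and control points of the same organ overlap for Erbb2.

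Epor itself had 0 counts in all 3 lymph node cKO libraries, against 24, 28 and 4 counts in lymph node controls, and 0, 2 and 0 counts in spleen cKO libraries, against 1, 0 and 6 counts in spleen controls. None of the 3 testable genes passed between the genotypes. In lymph node, cKO against control, Erbb2 had 11.9 ± 5.60 CPM in cKO and 10.1 ± 3.31 CPM in control libraries (SD, n = 3 each; log2 fold change 0.23 ± 0.48 SE, edgeR adjusted p = 0.993). Gfra2 had 0.830 ± 0.682 CPM in cKO and 2.26 ± 1.22 CPM in control libraries (-1.45 ± 1.18, edgeR adjusted p = 0.907). Sema6a had 1.12 ± 0.181 CPM in cKO and 0.893 ± 0.163 CPM in control libraries (0.33 ± 0.54, edgeR adjusted p = 0.986). The 2 genotypes overlapped for all 3 genes. In spleen Erbb2 had 0.591 ± 0.142 CPM in cKO and 0.354 ± 0.321 CPM in control libraries (0.62 ± 0.58, edgeR adjusted p = 0.721), Gfra2 0.288 ± 0.450 and 0.0282 ± 0.0489 CPM (3.04 ± 1.52, edgeR adjusted p = 0.417) and Sema6a 1.84 ± 1.24 and 2.0 ± 0.302 CPM (-0.16 ± 0.53, edgeR adjusted p = 0.947). By edgeR 0 of 3 passed in each organ, 0 of 3 at an unadjusted p under 0.05 and 0 of 3 by DESeq2, against 0.455% of all genes called in lymph node and 0.611% in spleen. The cKO effect differed between lymph node and spleen by -4.49 ± 1.93 on the log2 scale for Gfra2 (unadjusted p = 0.0341, edgeR adjusted p = 0.354), by -0.39 for Erbb2 (edgeR adjusted p = 0.895) and by 0.49 for Sema6a (edgeR adjusted p = 0.857), against 0.317% of all genes called. A p above the threshold does not show that the genotypes are alike.

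Relatives of the 10 genes were compared between the organs by edgeR, where 14.1% of all genes were called higher and 15.3% lower in cKO, and 21.0% higher and 20.3% lower in control. Mmp14, which lies on the cell surface, stood higher in lymph node than in spleen by 5.29 in cKO and 5.46 in control on the log2 scale, and Cdh2, the N-cadherin gene and a partner of R2B phosphatases, by 4.85 and 5.20. Sema6d was higher by 1.03 and 0.72. Adgrl3 was lower by -5.89 and -7.85 while Flrt3, a ligand of latrophilins, was higher by 3.76 and 2.39. In the ErbB list 0 of 8 genes tested passed by edgeR in either genotype, with 0 in cKO and 1 in control at an unadjusted p under 0.05 and likewise 0 and 1 by DESeq2. Among 13 ERK targets tested 4 were lower in cKO and 6 in control, and among 12 cAMP targets 8 were lower in cKO, and 7 were lower and 2 higher in control. Between genotypes, 3 cAMP targets were higher in lymph node cKO than in control: the nuclear receptor genes Nr4a2 (0.90 ± 0.16, edgeR adjusted p = 0.012) and Nr4a3 (0.85 ± 0.15, edgeR adjusted p = 0.012) and the phosphodiesterase gene Pde4b (0.33 ± 0.07, edgeR adjusted p = 0.0459), each lost in some fits with 1 library left out.

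Genes with the most similar pattern were sought over all 20 libraries, by the root mean square (RMS) difference of log2(CPM + 0.5) after centring each gene within its table, among 12626 genes. The pattern includes the contrast that chose the genes, so the distances are descriptions. Tmem229a lay nearest to Vnn3, a pantetheinase gene (RMS 0.167), Mmp13 to Vsig4, the complement receptor of resident macrophages (0.166), and Mrap to Cmbl (0.172). Ptprm and Adrb1 both lay nearest to Itgad, the integrin αD of splenic red pulp macrophages (0.240 and 0.299). Tenm4 lay nearest to Cmklr1, the chemerin receptor (0.323), with Stab1, a scavenger receptor, next (0.331), Sema6a to the potassium channel gene Kcna2 (0.307), and Ksr2 to Ppm1n (0.246). Gfra2, with C1qa at 0.596, and Erbb2, with Ccl8 at 0.632, lay farthest from their nearest gene. Among pairs of the 10, Tmem229a and Mmp13 were closest (0.275) and Sema6a and Erbb2 farthest apart (1.68).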

How the data were processed

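The authors deposited raw counts of reads per gene, whole and not normalized. For the TLI/ATS, untreated, EpoR+ and EpoR- libraries, the submitters' processing notes list featureCounts, HISAT2, StringTie and SAMtools with GRCm38, and for the lymph node and spleen libraries HISAT2 2.1.0 and featureCounts 2.0.8 with mm10. Per the file headers, featureCounts 2.0.3 made the EpoR table. The EpoR, lymph node and spleen tables were counted without strand and without joining pairs, so a pair can add 2 counts. Intervals (95%, exact, from the counts) and floors (3 counts) cover counting error only.

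Each of the 3 tables was tested apart, with one fit over all 12 lymph node and spleen libraries, in R 4.3.3 with edgeR 4.0.16: filterByExpr (minimum count 10, minimum total 15), TMM scaling, the quasi-likelihood test and Benjamini-Hochberg adjustment over all genes tested (threshold 0.05). Log2 fold changes carry the TMM scaling. The mean log2 TMM factor, first group minus second, was 0.29 for lymph node against spleen in control and 0.24 in cKO. It was -0.12 for TLI/ATS against untreated and less than 0.1 in size elsewhere. Relative to plain CPM, a positive value lowers the fitted log2 fold change of all genes by that amount, and a negative value raises it. DESeq2 1.42.0, no filter, a replicate block, 6-library fits and leaving out each library were tried. The fitting steps were tested on simulated data. Symbols came from the tables or GENCODE vM21 and were found for 98.9% to 99.8% of genes. The 10 genes, their relatives and the marker lists were chosen with earlier results of these data known. Named relatives were up to 4 genes per list and comparison past the threshold with the largest fold change, the paralogs of the 10 genes and their chromosomal neighbours; Ret, Mc2r, Plxna4, Mmp2, Mmp25, Mmp28 and Dusp6 were added after their values were seen.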

Additional observations from a re-analysis of the deposited data

Results flagged for a closer look

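For Egr1, an immediate early gene among the ERK targets, the effect of the cKO on log2 expression differed between lymph node and spleen by -0.90 ± 0.16 SE (n = 3 in each of 4 groups, edgeR's quasi-likelihood test of the interaction with Benjamini-Hochberg adjusted p = 0.0214), and the call was lost in 5 of 12 fits that left out 1 library. For Nr4a3, a nuclear receptor gene among the cAMP targets, that difference was 1.08 ± 0.21 SE (same test, adjusted p = 0.037), and the call was lost in 9 of 12 such fits.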

How the results depend on the processing

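No direction of a called value among the 10 genes turned under any alternative tried. Of the alternatives to single-gene results, 1149 left the call as it was, 114 lost it and 22 gained it. Erbb2 passed between lymph node and spleen in every fit. Sema6a in controls lost its call without the low-count filter, in the fit of 6 libraries and with a replicate block. Where a library was left out of the EpoR or TLI/ATS fits, the lone library was assumed to vary like the other group.

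The number of genes called moved as follows. For EpoR+ against EpoR-, 2606 genes became 5347 with a replicate block and 1454 to 2600 with 1 library left out. For TLI/ATS, 465 became 1414 with DESeq2, 1264 with a replicate block and 476 to 4908 with 1 library left out; of the 10 genes 1 passed, against 5 with DESeq2, 5 with the block and 3 to 8 with 1 library left out. For spleen cKO, 106 became 549 with DESeq2, 436 without the filter, 40 with a replicate block and 31 to 379 with 1 library left out. For lymph node cKO, 79 became 177 with DESeq2, 170 without the filter, 44 in the fit of 6 libraries and 51 to 72 with 1 library left out. For the difference of these effects, 55 became 426 with DESeq2, 364 without the filter, 34 with a replicate block and 29 to 222 with 1 library left out. Of the 10 genes, 1 to 2 passed between lymph node and spleen in cKO with 1 library left out. The cause was not tested. Replicate numbers are not said to mark shared mice, and same-numbered libraries deviated together with correlations of -0.02 (TLI/ATS), 0.42 (EpoR, 2 pairs) and -0.06 to 0.02 (lymph node and spleen), so the block is given only here. With the block 3 relatives that missed the threshold between EpoR+ and EpoR- passed, Tmem229b (adjusted p = 0.00281), Erbb3 (0.00932) and Plxna4 (0.0181), while Ksr1 did not (0.0628).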
